A study of Homo sapiens with 6 samples.

Results

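The transcripts described here are 7 transcription factors that drive the epithelial-mesenchymal transition (EMT), *ZEB1*, *ZEB2*, *SNAI1*, *SNAI2*, *TWIST1*, *TWIST2* and *PRRX1*, together with *VIM*, which encodes the intermediate filament protein vimentin. The 8 genes were chosen by name, and a gene was taken as measured where the deposited table of total RNA-seq in MDA-MB-231 cells has a row under its symbol. Of the 8 genes, 5 have a row among the 15917 genes of the table, namely *ZEB1*, *ZEB2*, *SNAI2*, *PRRX1* and *VIM*. *SNAI1*, *TWIST1* and *TWIST2* have none, neither by symbol nor by Ensembl identifier.

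MDA-MB-231 is an established human breast cancer line of the triple-negative, claudin-low kind. The series has 6 libraries in 3 groups of 2, each from cells that, by the study's methods, carried a luciferase label and a lentiviral short hairpin: a control hairpin (shCTRL) or 1 of 2 hairpins against *RBMS3* (shRBMS3-B3 and shRBMS3-C3). *RBMS3* encodes an RNA binding protein, and the knockdown was made to find the transcripts it regulates. The level given for each gene is the authors' mean normalized count, a read count scaled between libraries and averaged over the libraries of their knockdown comparison. The comparison is described as 2 knockdown against 2 control replicates, fewer than the 6 libraries of the series, and which of them entered the mean is not given in the sources used here. The mean combines both conditions, carries no spread and does not show the depth of any library, so no knockdown effect, error or test could be computed for these genes, and the authors' own fold changes and p-values were not used.

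EMT is the program by which epithelial cells give up polarity and tight junctions and gain motility. ZEB1 and ZEB2 carry 2 clusters of zinc fingers, and SNAI1 and SNAI2 carry a single cluster behind a repressor motif. All of these factors bind E-box sequences in promoters such as that of *CDH1*, the gene for E-cadherin, and repress them. TWIST1 and TWIST2 are basic helix-loop-helix proteins that bind E-boxes as dimers, and PRRX1 is a homeobox protein. Vimentin replaces or joins the keratins in the cytoskeleton of mesenchymal cells and is a standard marker of the mesenchymal state. MicroRNAs of the miR-200 family and ZEB1 and ZEB2 are known to repress one another.

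The 3′ untranslated region (3′UTR) sequences that such regulators read are shown first, because the experiment asks how an RNA binding protein acts on transcripts. The mature microRNAs below are from RefSeq on GRCh38.p14, written 5′ to 3′, and capitals mark the seed, bases 2 to 8. The first 3 share 1 seed and the last 2 share another.

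hsa-miR-200b-3p: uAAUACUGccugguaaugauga

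hsa-miR-200c-3p: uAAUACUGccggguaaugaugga

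hsa-miR-429: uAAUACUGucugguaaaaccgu

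hsa-miR-200a-3p: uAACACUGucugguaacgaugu

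hsa-miR-141-3p: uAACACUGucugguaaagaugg

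The perfect matches to these seeds are CAGTATT and CAGTGTT on the transcript strand, the only strand searched. In the 2540-base 3′UTR of *ZEB1* there were 9 such matches, 6 of CAGTATT and 3 of CAGTGTT. In the 5370-base 3′UTR of *ZEB2* there were also 9, of which 5 were CAGTATT and 4 were CAGTGTT. Among 12351 listed genes with an annotated 3′UTR, 33.6% had at least 1 match and 8 genes had 9 or more, the 2 ZEB genes included. Length alone raises this number, so 3′UTRs within 20% of each member's length were taken as its length peers. Of the 1739 length peers of *ZEB1*, 47.7% had at least 1 match and none had 9. Of the 962 peers of *ZEB2*, 73.2% had at least 1 match, the median was 1, and 0.104% had as many as 9. *SNAI2* had 1 match, and 26.6% of its peers had at least that many, while *SNAI1*, *TWIST1*, *TWIST2*, *PRRX1* and *VIM* had 0. A match is a description of the letters, and microRNAs were not measured in this experiment.

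The first matches after the stop codon are printed for both ZEB genes, with the match in capitals and up to 30 bases of GRCh38 transcript sequence in all. All of these lie in the 3′UTR of the MANE Select transcript, on the plus strand for *ZEB1* and the minus strand for *ZEB2*.

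ZEB1, chr10:31527622-31527651: ttttatcttatCAGTATTatcactcttatg

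ZEB1, chr10:31527716-31527745: taaatccgcttCAGTATTttattatgtttt

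ZEB2, chr2:144389225-144389254: aaaattttgtaCAGTGTTaaggcctaaaaa

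ZEB2, chr2:144389041-144389070: ctaccatacatCAGTATTtttattattatt

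The study links RBMS3 to an AUA element, which was searched as 7 letters: A, G or T, then A or T, then ATA, then A or T, then A. All 8 genes had at least 1 match in the 3′UTR, whereas 84.8% of the 12351 listed genes with a 3′UTR did. A share this high among all genes means that a single match says little about a gene. The first match of each gene is printed with the match in capitals, apart from *SNAI2*, whose bases are not printed here. The *SNAI1* run is shorter because the transcript ends there.

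ZEB1, chr10:31527271-31527300, plus strand: ttctagaaggaAAATAAAttctaattgata

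ZEB2, chr2:144388784-144388813, minus strand: agtaagatgagAAATAAAgaaagcctttgt

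SNAI1, chr20:49988862-49988886, plus strand: aagcagttaatTTATATAttaaaaa

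TWIST1, chr7:19116050-19116079, minus strand: tggataactaaAAATAAAaatatatgccaa

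TWIST2, chr2:238910208-238910237, plus strand: gtctattttttTAATAAAacagaaatgcat

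PRRX1, chr1:170736535-170736564, plus strand: ccaaagaaactATATATAtatatatatata

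VIM, chr10:17237300-17237329, plus strand: attaccagcaaGAATAAAaaagaaatccat

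The members differed widely in how many AUA matches they held, with overlapping matches counted. *ZEB2* had 31 matches, against a median of 13 in its length peers, and 5.61% of the peers had as many. *PRRX1* had 28 matches in 3235 bases, against a median of 7, and 1.16% of its 1635 peers had as many. The run of alternating A and T printed for *PRRX1* counts several times, and without overlaps the gene had 14 matches. *TWIST1* had 6 matches in only 706 bases, as many as 7.20% of its 1208 peers, and 3 without overlaps. *ZEB1* had 10 matches against a peer median of 6, a number that 25.6% of its peers reached. *SNAI2* had 3 and *VIM* 1, each equal to the median of its peers. *TWIST2* had 2 against a median of 1, and *SNAI1* had 1 against a median of 2.

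**Figure D1:**
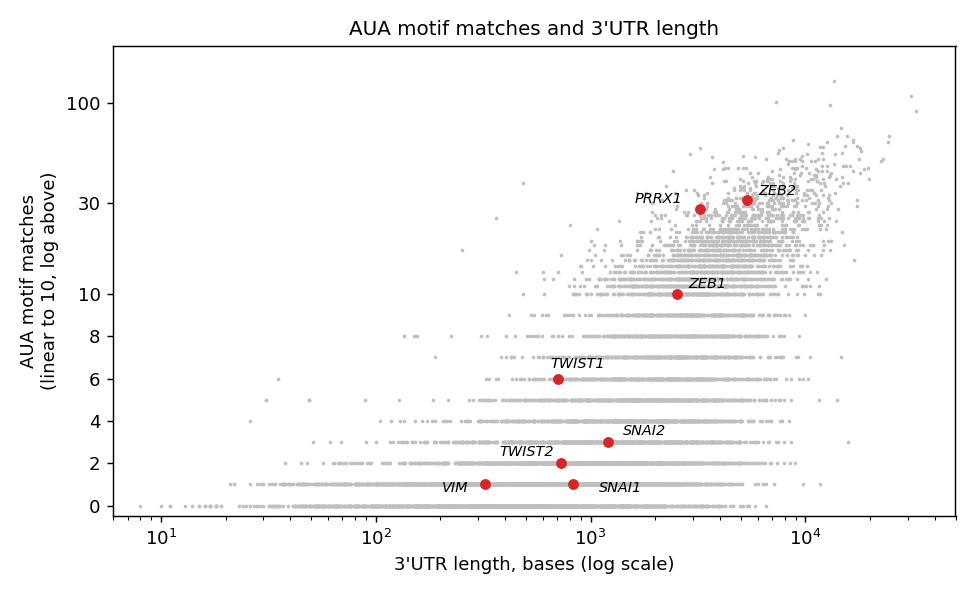
AUA motif matches (vertical axis, linear to 10 and logarithmic above) against 3′UTR length in bases (horizontal axis, logarithmic). Each grey point is 1 of 12351 listed genes and red points are the 8 named genes, of which *SNAI1*, *TWIST1* and *TWIST2* have no row in the table. *ZEB2* with 31 and *PRRX1* with 28 matches lie in the upper part of the points at their lengths, where 5.61% and 1.16% of their length peers had as many. *SNAI1* and *VIM* have 1 match each.

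Base composition also differed among the members. The 3′UTRs of *SNAI2*, *VIM*, *ZEB1* and *ZEB2* were 68.6%, 67.7%, 67.1% and 66.8% A+U, above at least 84.9% of the genes with a 3′UTR. Those of *PRRX1* and *TWIST1* were 64.3% and 63.6% A+U, whereas *TWIST2* had 51.8% and *SNAI1* 46.1%, below the median of 57.9% over all these genes. The AUA motif also overlaps the polyadenylation hexamer AATAAA, which was part of 14 of the 31 matches in *ZEB2*, 4 of the 10 in *ZEB1*, all 3 in *SNAI2*, both in *TWIST2*, 3 of the 6 in *TWIST1*, 2 of the 28 in *PRRX1* and the single match of *VIM*. The part of base composition and of this overlap in the AUA counts was not tested.

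*VIM* (ENSG00000026025, chr10:17228241-17237593, plus strand of GRCh38 in GENCODE release 44) had an authors' mean normalized count of 69335, rank 18 of the 15917 listed genes. This level is 191 times the median of all listed genes, which was 364. *ZEB1* (ENSG00000148516, chr10:31318495-31529814, plus strand) was the factor with the highest mean, 1034, above 75.0% of listed genes. The mean of *ZEB2* (ENSG00000169554, chr2:144364364-144521057, minus strand) was 343, just below the median of all listed genes. For *SNAI2* (ENSG00000019549, chr8:48917598-48921740, minus strand) it was 288, above 44.6% of listed genes. The listed genes include some that are not protein-coding. Among the 12408 listed protein-coding genes alone, *ZEB1* was above 69.6%, *ZEB2* above 38.1% and *SNAI2* above 33.8%. *PRRX1* (ENSG00000116132, chr1:170662728-170739421, plus strand) lay near the bottom of the table with a mean of 29.0, where the lowest listed mean was 26.7 and 274 genes lay below it.

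**Figure D2:**
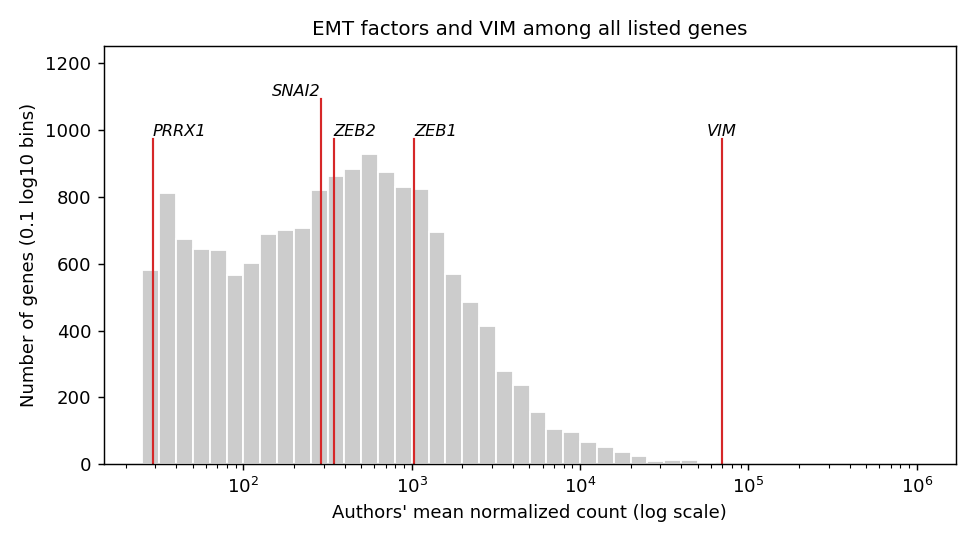
Number of listed genes (vertical axis, bins of 0.1 on the log10 scale) by the authors' mean normalized count (horizontal axis, logarithmic), over all 15917 genes. Red lines mark the 5 members with a row: *PRRX1* at 29.0 at the lower edge, *SNAI2* at 288 and *ZEB2* at 343 near the middle, *ZEB1* at 1034 and *VIM* at 69335 far to the right.

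The 3 members without a row are *SNAI1* (ENSG00000124216, chr20:49982980-49988886, plus strand), *TWIST1* (ENSG00000122691, chr7:19020991-19117636, minus strand) and *TWIST2* (ENSG00000233608, chr2:238848032-238910534, plus strand). Their levels were not analysed here, and a missing row does not show that a transcript was at 0. Of the paralog pairs, only *ZEB1* and *ZEB2* could therefore be set side by side.

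Longer transcripts collect more reads, so levels of different genes were compared as mean normalized count per kilobase of the MANE Select transcript. On this per-length scale the order was *VIM* with 32189, *ZEB1* with 174, *SNAI2* with 132, *ZEB2* with 37.0 and *PRRX1* with 7.15, where the median of 12408 listed protein-coding genes was 152. Among the factors *ZEB1* alone was above this median, but *ZEB1* and *SNAI2* both lay close to it. They were above 53.6% and 46.2% of these genes, and *ZEB2* was above 17.6%. *ZEB2* thus fell behind *SNAI2*, although its mean before division by length was higher, since its transcript of 9265 bases is far longer than the 2180 bases of *SNAI2*. Per kilobase, *ZEB1* was 4.70 times *ZEB2*, *SNAI2* was 18.5 times *PRRX1*, and *VIM* was 185 times *ZEB1*. With the coding length *SNAI2* was 9.07 times *PRRX1*, and with no division by length *VIM* was 67.1 times *ZEB1*, so these sizes depend on the length used. *ZEB1* exceeded *SNAI2* by 1.32 times, and with the coding length in place of the transcript length this ratio was 0.855, so the order of these neighbours depends on it too. Without values of single libraries, none of these ratios has an error, and which neighbours differ beyond the spread of libraries was not tested.

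The transcript level of *VIM* was set beside those of keratin and other intermediate filament genes. Of 23 intermediate filament genes, 14 have a row, and *VIM* had the highest level per kilobase. It was followed by the simple epithelial keratin *KRT7* with 11234, so that *VIM* was 2.87 times the keratin with the highest level. *KRT8* and *KRT18*, which pair with each other in simple epithelia, had 9979 and 8980 mean normalized counts per kilobase. The nuclear lamina gene *LMNA* had 6373, whereas the lowest were *SYNM* with 130 and *GFAP* with 36.3. The basal keratins *KRT5*, *KRT14* and *KRT17* have no row, nor do *DES*, *PRPH*, *INA*, *NEFL*, *NEFM* and *NEFH*, which mark muscle and neurons. *KRT81* had 3535 and its near-identical copy *KRT86* had 133 mean normalized counts per kilobase. Whether reads were split between these copies was not tested.

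Of 12 other EMT-inducing factors, 6 have a row, with a median mean normalized count of 835 before division by length. Per kilobase, all of these were above *ZEB2*, while some were below *ZEB1* and *SNAI2*. Per kilobase, *SOX9* had 780 and *TCF3*, which encodes the E2A proteins that dimerize with TWIST factors, had 531, both above *ZEB1*. *TCF12*, another dimer partner, had 121 and *FOXC1* had 65.0, both below *ZEB1* and *SNAI2*. *SNAI3*, *PRRX2*, *FOXC2*, *GSC*, *TCF4* and *KLF8* have no row. The ID proteins bind E2A proteins and keep them from DNA, and of their 4 genes 3 have a row. *ID1* had 1197 mean normalized counts per kilobase, *ID3* 307 and *ID4* 27.3, and *ID2* has no row.

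All 11 genes for corepressors and chromatin enzymes that ZEB and SNAI factors recruit have a row. Each had a mean normalized count above the median of listed genes, and the list's median was 2177. Most listed protein-coding genes also lay above that median of 364. *ZEB2*, just below it at 343, was above only 38.1% of them. *SMARCA4*, the ATPase of a chromatin remodelling complex that ZEB1 binds, had 1815 mean normalized counts per kilobase, and *CTBP1*, the classical ZEB corepressor, had 1440. The lowest of the list were its paralog *CTBP2* with 191 and *RCOR1*, the CoREST partner of the demethylase KDM1A, with 222. Every gene of this list was above *ZEB1* per kilobase of MANE Select transcript. Among 13 genes for the turnover of SNAI and TWIST proteins, 10 have a row. The kinase gene *CSNK1A1* had 702 and the proteasomal deubiquitinase gene *PSMD14* had 670 per kilobase, the ubiquitin ligase gene *FBXW7* had 98.9, and the deubiquitinase gene *USP47* had 109. *USP17L2*, *USP27X* and *PRKD1* have no row.

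Both lists of epithelial genes had a median mean normalized count below the 364 of all listed genes. Neither list holds the simple epithelial keratins *KRT7*, *KRT8*, *KRT18* and *KRT19*, which were placed among the intermediate filament genes. Their means, from 6846 for *KRT19* to 18255 for *KRT7*, lay far above that median. Of 11 transcription and splicing regulators that oppose EMT, 6 have a row, with a median mean normalized count of 261. *KLF5* and *KLF4* had 204 and 192 per kilobase, whereas *ESRP2*, a splicing regulator of epithelial isoforms, had 36.7 and *GRHL1* had 14.5. *GRHL2*, *GRHL3*, *OVOL1*, *OVOL2* and *ESRP1*, several of which repress *ZEB1* in epithelial cells, have no row. Of 20 epithelial junction and marker genes, 17 have a row, with a median mean normalized count of 168 before division by length. By the same count, 6 of those lay above the median of listed genes, whereas most listed protein-coding genes did. Of the 6, *OCLN* with 98.9 per kilobase was below the protein-coding median of 152. *CDH1*, a target of nearly all the factors, had a mean normalized count of 31.6 and, with 6.57, the lowest level per kilobase of the 17. *CLDN1*, a tight junction gene, followed with 8.61, although its mean before division by length, 29.7, was the lower. Both means lay near 26.7, the lowest of all listed genes. The desmosomal gene *DSP* with 445 and the junction scaffold gene *TJP1* with 388 were the highest of the 17, and both exceeded *ZEB1*. *TJP3*, *CRB3* and *RAB25* have no row.

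Of 20 mesenchymal marker genes, 16 have a row. By mean normalized count before division by length, 11 of those lay above the median of listed genes, as most listed protein-coding genes did. Of the 11, *TNC* with 134 and *CDH11* with 107 per kilobase were below the protein-coding median of 152. *AXL*, a receptor tyrosine kinase gene, had 7502 mean normalized counts per kilobase, and *S100A4* had 3537. *TAGLN* and *PDGFRB* were lowest with 18.6 and 24.5, and *CDH2*, *SPARC*, *MMP2* and *THY1* have no row. *CDH2* encodes N-cadherin, a common marker of EMT, so a high *VIM* level stood beside an unlisted *CDH2*.

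**Figure D3:**
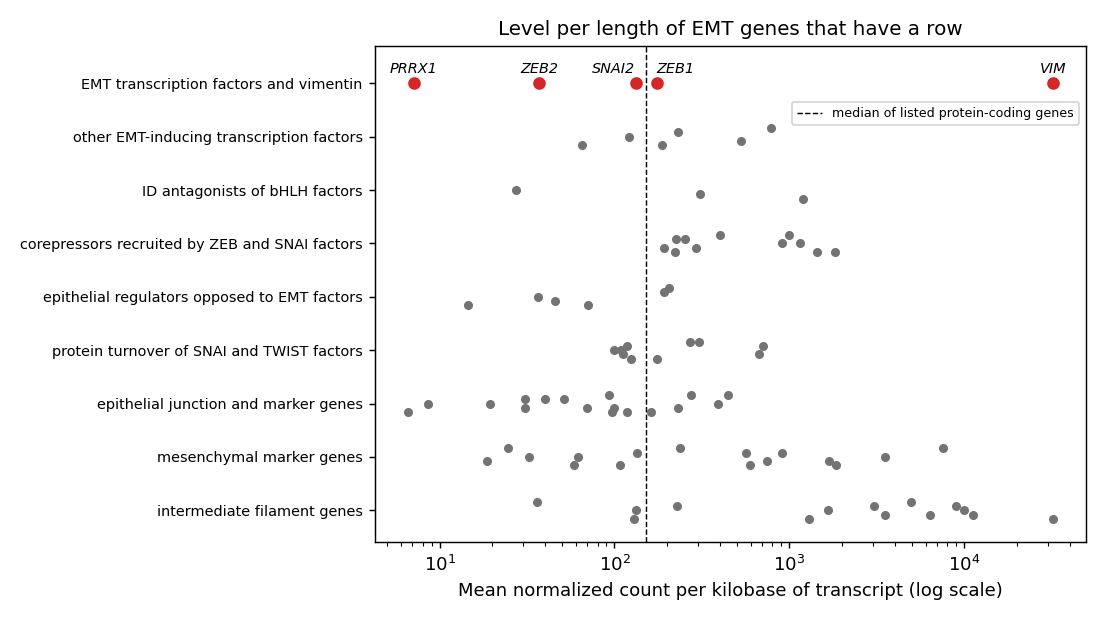
Mean normalized count per kilobase of transcript (horizontal axis, logarithmic) for each listed gene of the 9 gene lists (rows; points are spread vertically for visibility), with the 5 members in red and the dashed line at 152, the median of listed protein-coding genes. *VIM*, which also stands in the row of intermediate filament genes, lies at 32189, *ZEB1* and *SNAI2* lie on either side of the line, and *ZEB2* and *PRRX1* lie below it.

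The labelled cell line was checked against its markers. All 8 genes named as markers of MDA-MB-231, of which *VIM* is one, have a row, with means from 3736 to 69335. Of 9 genes that the line lacks or has little of, 3 have no row, *ESR1*, *PGR* and *KRT5*, and 5 of the other 6 lay below the median of listed genes, from 31.6 for *CDH1* to 171 for *GATA3*. The sixth, the tight junction gene *CLDN4*, had a mean of 465, above that median, and with 274 per kilobase it was above *ZEB1*. Of 6 fibroblast markers, 2 have a row, at 139 for *PDGFRB* and 192 for *COL1A1*, and none of 4 leukocyte markers does. *RBMS3*, the targeted gene, had a mean normalized count of 272 over the libraries, which does not show the knockdown. The antisense gene *ZEB1-AS1* had 49.6, and *ZEB2-AS1* and *VIM-AS1* have no row.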

How the data were processed

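Total RNA of MDA-MB-231 cells was sequenced in 6 libraries (2 each of shCTRL, shRBMS3-B3 and shRBMS3-C3) made with a stranded, ribosomal-depleted kit for small inputs. The authors deposited 1 table with 1 row per gene, whose mean normalized count is a signal averaged over libraries. The submitters' processing notes name Salmon, DESeq2 and hg38, and the annotation is not given in the sources used here. The table's 5 other columns hold the authors' own knockdown comparison (fold change, its error, test statistic and p-values) and were not used. Values of single libraries were not analysed here, so depth and precision are unknown and the planned knockdown test was not made.

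Genes were matched to GENCODE release 44 on GRCh38 by Ensembl identifier, which holds 15829 of the 15917. Lengths and 3′UTRs (at least 7 bases) came from the MANE Select transcript, otherwise the Ensembl canonical one. Percentiles are the share of genes with a lower value. Printed sites were checked against the hg38 genome. Named are the 8 members, *RBMS3*, the 2 highest and 2 lowest genes per kilobase of each list, and genes with no row. *KRT8*, *KRT18*, *KRT19*, *LMNA*, *KRT81*, *KRT86* and the antisense genes were named after their values were seen. Members and lists were chosen with earlier results of these data known. The miR-200 search and the search of length peers were added after the values were seen. Alternatives were the length, the gene background, matching by identifier, the longest 3′UTR and AATAAA. The planned comparison of protein sequences was not made. The counting functions were tested on simulated sequences. Python 3.11.15 with pandas 2.3.3 and matplotlib 3.10.9 was used.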

Additional observations from a re-analysis of the deposited data

How the results depend on the processing

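Of 60 alternatives to 34 values, 42 left the value within 1.5 times, 16 moved it further and 2 reversed the order of a pair. Some of these could not differ, so the tally is no measure of robustness. The longest 3′UTR was the one already used for *ZEB2*, *SNAI1*, *SNAI2*, *TWIST1*, *TWIST2* and *PRRX1*. The AATAAA alternatives counted another motif. The ratio of *ZEB1* to *ZEB2* was 4.70 per kilobase and 3.01 with no division by length. The ratio of *ZEB1* to *SNAI2* was 1.32 per kilobase, 3.59 with no division by length, and turned to 0.855 with the coding length, which takes a larger share off the *SNAI2* transcript (2180 to 804 bases) than off that of *ZEB1* (5937 to 3375 bases). The ratio of *ZEB2* to *SNAI2* was 0.280 per kilobase and 1.19 with no division by length. The ratio of *SNAI2* to *PRRX1* was 18.5 per kilobase, 9.07 with the coding length and 9.92 with no division by length, and that of *VIM* to *ZEB1* fell from 185 to 67.1 with no division by length. Apart from *ZEB1* to *ZEB2* and *VIM* to *KRT7*, these pairs were chosen after seeing the data. The number of genes with a row was the same by symbol and by gene identifier in all 9 lists, and all 8 members had an AUA match also in the longest annotated 3′UTR. No paired analysis was possible because each gene comes with 1 pooled mean and no replicate. For the same reason no replicate was left out, and no other normalization or filter was tried. Depth is unknown, and means near the lowest listed value of 26.7, such as those of *PRRX1*, *CDH1* and *CLDN1*, rest on low counts.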
